A study of Mus musculus with 2 samples.

Results

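NuA4, called the TIP60 complex in mammals, is a nuclear machine that acetylates histones H4, H2A and H2A variants at promoters and at sites of DNA damage. In mammals it also holds a chromatin remodelling ATPase, so that the same complex can acetylate nucleosomes and place the variant H2A.Z in them. Its parts are a catalytic module (Kat5, with Epc1 or Epc2 and Ing3), a large scaffold that docks transcription factors (Trrap), the remodelling ATPase (Ep400), chromatin-binding subunits (Brd8, Dmap1) and a ring of AAA+ ATPases (Ruvbl1 and Ruvbl2). The 10 genes named here were taken by symbol from this known membership, by a rule that uses no measured value, although earlier results of these data were known when the complex was picked. They make up 10 of the 22886 genes listed. All 10 were found, each as a single locus, and all 10 passed a filter of a mean of at least 1 RPKM (reads scaled to transcript length and to library size), as did 10982 genes in all.

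The data were polyA RNA sequencing of cells sorted from subcutaneous LLC tumors, a mouse lung carcinoma grown under the skin. 1 of the 2 libraries came from C57BL/6 wild type mice injected with vehicle (Veh) and the other from C57BL/6 wild type mice injected with clodronate (Clod), an agent used in liposomes to deplete phagocytes. The labels call the cells aerobic tumor cells, and no age, dose, time or pooling of mice is given in the sources used here. The growth protocol names EML cells, a blood progenitor line, which conflicts with the tissue label. With 1 library per condition there was no replicate, so no difference below was tested and every statement is about these libraries.

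The labelled cell type was set against marker genes. All 12 macrophage markers were high, from 49.3 RPKM (Mertk) to 10534 RPKM (Lyz2) with vehicle and from 44.5 to 11189 RPKM with clodronate. Of 7 epithelial markers, Epcam, Krt19 and Cldn4 were listed at 0 with either injection, and Cdh1 was highest at 6.14 and 6.44 RPKM. The markers therefore go against a label of carcinoma cells alone, and the libraries are named here by the injection. These are bulk samples, in which fewer cells of a type and less RNA per cell cannot be told apart. Low RPKM values fell on steps that gave the worth of 1 read, from which the values had been scaled to about 13700000 reads with vehicle and 11200000 reads with clodronate, 1.22 times as many with vehicle.

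The 10 members were expressed at moderate levels in both libraries. Their median was 12.8 RPKM with vehicle and 15.8 RPKM with clodronate, beside 11.1 and 11.3 RPKM over all genes kept. Summed over the members the level was 154 RPKM with vehicle and 161 RPKM with clodronate. In the vehicle library the order from high to low was Epc1, Kat5, Ep400, Ruvbl1, Ruvbl2, Epc2, Trrap, Brd8, Ing3 and Dmap1. In the clodronate library it was Ep400, Epc1, Kat5, Ruvbl2, Trrap, Epc2, Brd8, Ruvbl1, Ing3 and Dmap1. Ing3 and Dmap1 were the lowest in both. The highest member exceeded the lowest 39.7-fold with vehicle and 5.82-fold with clodronate, and the wider span with vehicle was that of Dmap1, since the highest exceeded the second lowest 5.12-fold there. Without replicates, it cannot be said which neighbours in these orders differ.

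**Figure D1:**
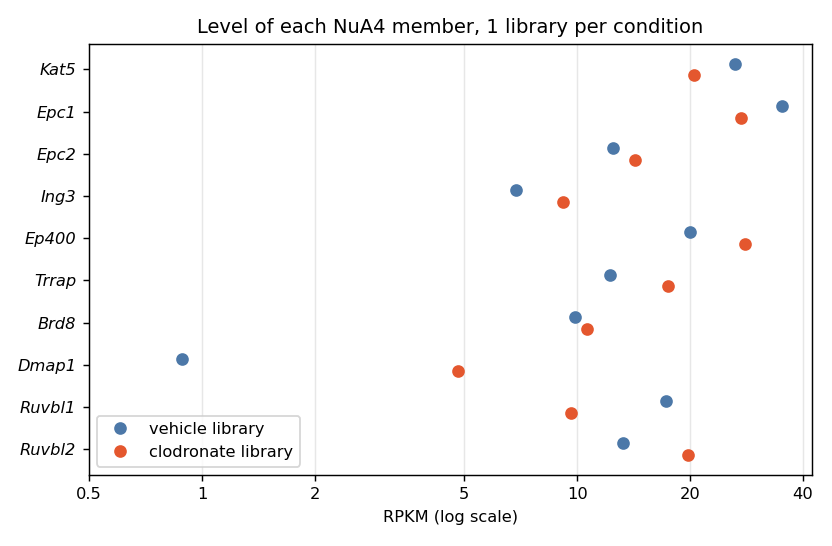
RPKM of each NuA4 member (log axis) in the vehicle and the clodronate library, 1 library each and so without error bars. Dmap1 has the widest gap, 0.886 against 4.82 RPKM, and Ruvbl1 the widest gap in the other direction, 17.3 against 9.61 RPKM.

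Between the libraries, 7 members were higher and 3 lower with clodronate, while 51.6% of all genes kept were higher and 48.4% lower. Differences are given as log2 of clodronate RPKM + 1 over vehicle RPKM + 1, a scale that understates the change of low genes. On it the member median was 0.28, and 0.18 without Dmap1, against a median of 0.02 over all genes kept, whose middle 50% lay between −0.38 and 0.40. Of the 10 members, 5 lay inside that range. At least 3-fold higher with clodronate was 1 member, Dmap1, against 2.86% of all genes kept, and at least 3-fold lower were 0 members, against 2.32%. The count of 1 became 0 when the libraries were scaled to the same upper quartile (Dmap1 at 1.58) and when a mean of at least 5 RPKM was required, which left Dmap1 out. At least 2-fold, the counts were again 1 higher and 0 lower, with 6.95% of all genes kept higher and 6.77% lower.

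How far genes scattered depended on their reads. The number of reads behind each value was estimated from the read steps and the transcript length, and each member was set among the genes whose mean estimated reads lay within 1.5 times its own. All 10 members lay inside the middle 90% of those genes, and 3 (Epc2, Ing3 and Brd8) inside the middle 50%. Nearest to the edge were Dmap1, with 6.79% of 884 like genes higher, Ep400, with 10.1% of 795 higher, Trrap, with 11.1% of 1104 higher, and Ruvbl1, with 11.04% of 2155 lower. The scatter was much wider than counting error: 545 loci with 60 to 90 estimated reads in the clodronate library had from 2 to 260 in the vehicle library over their middle 90%. Those loci were chosen by their clodronate reads alone, which widens the vehicle range. With 1 library per condition, the scatter also holds any difference between the injections and is no measure of noise alone.

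**Figure D2:**
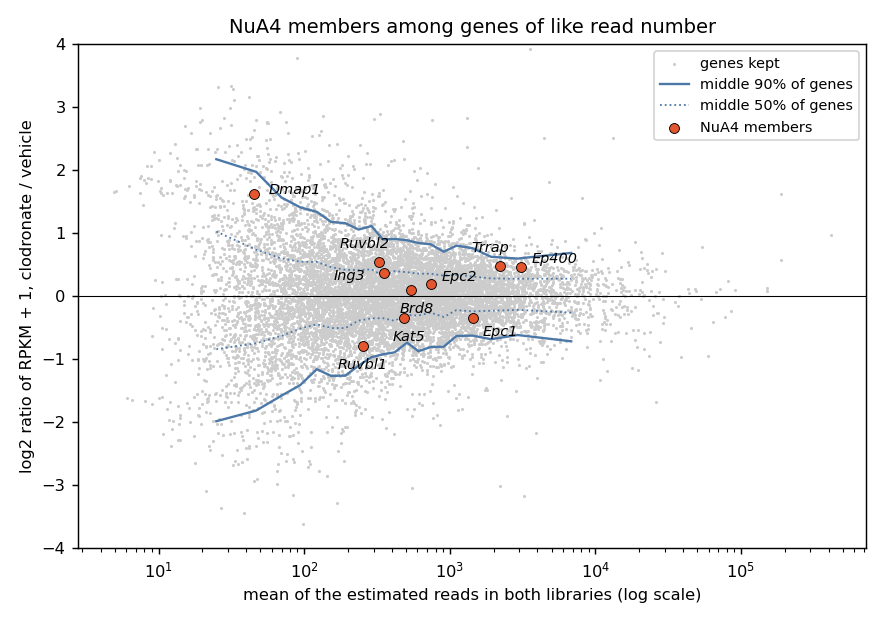
Log2 ratio of clodronate over vehicle (RPKM + 1) against the mean estimated reads of both libraries (log axis), for genes kept in grey and the 10 members named, with lines that bound the middle 90% and the middle 50% of genes at each depth. All 10 members fall inside the outer lines, and Dmap1, with a mean of 45.1 estimated reads, sits near the low end, where the lines are wide.

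In the catalytic module, Kat5 and Epc1 were lower with clodronate and Ing3 and Epc2 higher, each by less than 0.4 on the log2 scale as deposited. Kat5, the MYST-family acetyltransferase that gives the complex its activity, had 26.3 RPKM with vehicle and 20.5 RPKM with clodronate (log2 ratio −0.35; about 592 and 374 reads). Its locus on chromosome 19 (mm9, 5603013 to 5610094) lies 54 bases from Rnaseh2c, a ribonuclease subunit gene, and 16.5% of the 50-base stretches of the Kat5 transcripts were shared with it. Rnaseh2c itself had 41.3 and 32.1 RPKM, a log2 ratio of −0.35 as for Kat5, and how reads were divided between these genes was not tested.

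Epc1, an enhancer of polycomb protein that ties the catalytic subunit to the nucleosome, had 35.2 and 27.4 RPKM (log2 ratio −0.35; about 1781 and 1130 reads), the highest member with vehicle. Its paralogue Epc2, which can take the same place, had 12.4 and 14.3 RPKM (0.18; about 767 and 718 reads). Epc1 was thus the more abundant of the pair per length in both libraries, 2.83 times Epc2 with vehicle and 1.92 times with clodronate. Ing3, which carries a PHD finger that reads methylated histone H3, had 6.86 and 9.16 RPKM (0.37; about 339 and 369 reads), and its log2 ratio was 0.58 with the trends of GC content and transcript length over all genes subtracted. Among the Ing family in the same libraries it stood near Ing5 (1.07 and 1.35 times Ing5) and below Ing4 (0.230 and 0.487 times Ing4).

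Compared with Kat8, the MYST enzyme of the MSL and NSL complexes, Kat5 was 1.3 times as high with vehicle and 1.36 times with clodronate. Both acetyltransferase genes were lower with clodronate, Kat8 having 20.3 and 15.0 RPKM.

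The largest subunits were both higher with clodronate and kept their ratio to each other. Trrap, a scaffold of the PI3K-related kinase family that lacks kinase activity and binds activators such as Myc, had 12.2 and 17.4 RPKM (log2 ratio 0.48; about 2058 and 2395 reads). Ep400, the SNF2-family ATPase that exchanges H2A.Z, had 20.0 and 28.1 RPKM (0.47; about 2863 and 3282 reads). Trrap was 0.612 times Ep400 with vehicle and 0.621 times with clodronate. They lie on the same chromosome but far apart, Ep400 at 111093391 to 111199736 and Trrap at 145529660 to 145620642 of chromosome 5 (mm9). Over all genes, the median log2 ratio went from −0.24 in the tenth of genes with the lowest GC content to 0.29 in that with the highest. It was 0.06 in the tenth of GC content that holds both Trrap and Ep400. In the tenth with the longest transcripts, which also holds both, it was 0.07. With the trends of GC content and length subtracted the values were 0.29 for both genes, and the share of each trend was not separated. In Ep400, 4.8% of the 50-base stretches were shared with the processed pseudogene Gm12928, and in Trrap 0.

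The related kinases were not alike in direction. Of 5 PI3K-related kinase genes, Atr (2.81 and 3.65 RPKM) and Prkdc (0.908 and 3.20 RPKM) were higher with clodronate, and Atm, Mtor and Smg1 were lower, with a median log2 ratio of −0.03. Prkdc, the catalytic subunit of DNA-dependent protein kinase, was under 1 RPKM with vehicle, as was Dmap1.

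Brd8, a bromodomain subunit that binds acetylated histones, differed least of the members, with 9.84 and 10.6 RPKM (log2 ratio 0.10; about 576 and 506 reads). The files give it a locus in common with Kif20a, a mitotic kinesin with 1.95 and 13.2 RPKM, and with Cdc23, an anaphase-promoting complex subunit with 6.87 and 9.07 RPKM. Kif20a was higher with clodronate, as were 13 of 15 genes of a proliferation list and 51.6% of all genes kept. The median log2 ratio of that list was 1.02. Whether reads of Kif20a reached Brd8 was not tested.

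Dmap1, a SANT-domain protein shared with the SRCAP complex, had the largest difference of the members. It had 0.886 RPKM with vehicle and 4.82 RPKM with clodronate, the lowest member in each library. The log2 ratio was 1.63 and the plain ratio of RPKM 5.44. The values rest on about 17 reads with vehicle and 73 with clodronate, for which counting error alone gives a 95% interval of the ratio from 3.17 to 9.83. That interval leaves out the scatter between libraries: the like genes by reads had a middle 90% from −1.76 to 1.92 on the log2 scale, which holds the Dmap1 value. Among genes kept with a mean below 5 RPKM, 6.18% were at least 3-fold higher with clodronate. None of its 50-base stretches was shared with another gene, and its nearest neighbour Eri3, 404 bases away, went the other way, with 22.9 and 18.1 RPKM.

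Ruvbl1 and Ruvbl2, AAA+ ATPases that assemble into a mixed ring, differed in opposite directions. Ruvbl1 had 17.3 RPKM with vehicle and 9.61 RPKM with clodronate (log2 ratio −0.79; about 351 and 158 reads), and Ruvbl2 had 13.3 and 19.8 RPKM (0.54; about 298 and 360 reads). Their order thus turned: Ruvbl1 was 1.3 times Ruvbl2 with vehicle and 0.487 times with clodronate. The difference between their log2 ratios was 1.33. It was 1.18 after correction for GC content and length and 1.41 with a pseudocount of 0.1. The other scalings and filters act on both genes alike, so they could hardly move it. Counting error alone gave an interval of the RPKM ratio from 0.458 to 0.673 for Ruvbl1 and from 1.27 to 1.74 for Ruvbl2, both narrower than the scatter of like genes.

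The uniqueness of their reads differed. In Ruvbl1, 56.2% of 50-base stretches (913 of 1626) were shared with the processed pseudogene Gm5837, which has no locus in the files, and in Ruvbl2 0 were shared. How the authors counted reads that match more than 1 place is not given in the sources used here, so the level of Ruvbl1 is uncertain to that extent. Ruvbl2 (chromosome 7, 52677267 to 52689834, mm9) lies 374 bases from Gys1, the muscle glycogen synthase gene, which had 6.43 and 10.4 RPKM, and 43 bases from Lhb, listed at 0 in both libraries.

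The promoters of the 3 members with log2 ratios farthest from 0, in either direction, are shown. They run from 250 bases before to 50 after the annotated start, so that the start regions of the members that differed most can be read. They are RefSeq sequence on GRCm38.p6, printed from 5′ to 3′ on the strand of the gene. Capitals mark CCGGAAG (the ETS core), CCAAT or ACGTG (the hypoxia element core), each on either strand.
Dmap1: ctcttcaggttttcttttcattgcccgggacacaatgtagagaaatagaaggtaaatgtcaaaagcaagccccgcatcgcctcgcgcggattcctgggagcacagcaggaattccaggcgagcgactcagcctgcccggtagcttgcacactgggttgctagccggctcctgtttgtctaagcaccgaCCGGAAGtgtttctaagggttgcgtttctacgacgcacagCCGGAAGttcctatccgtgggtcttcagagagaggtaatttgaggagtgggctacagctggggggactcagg
Ruvbl1: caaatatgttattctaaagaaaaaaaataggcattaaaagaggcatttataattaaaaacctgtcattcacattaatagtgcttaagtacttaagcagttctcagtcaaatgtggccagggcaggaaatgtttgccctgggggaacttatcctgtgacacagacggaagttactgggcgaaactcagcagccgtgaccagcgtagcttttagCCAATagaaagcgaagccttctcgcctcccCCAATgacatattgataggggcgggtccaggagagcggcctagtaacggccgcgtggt
Ruvbl2: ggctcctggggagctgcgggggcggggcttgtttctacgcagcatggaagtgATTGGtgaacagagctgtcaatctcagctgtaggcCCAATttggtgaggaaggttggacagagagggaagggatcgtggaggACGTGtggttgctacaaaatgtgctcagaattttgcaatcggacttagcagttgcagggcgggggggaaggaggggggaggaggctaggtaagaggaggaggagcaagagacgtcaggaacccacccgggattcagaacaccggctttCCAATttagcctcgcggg

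Dmap1, on chr4:117682176-117682475 (minus strand), holds CCGGAAG at −62 and −22 bases from its start, a motif found in 18.3% of the promoters of genes kept, and no CCAAT. Ruvbl1, on chr6:88465159-88465458 (plus strand), holds CCAAT at −38 and −8, and Ruvbl2, on chr7:45434415-45434714 (minus strand), holds it at −198, −163 and 33 together with 1 ACGTG at −116. CCAAT was present in 37.5% of promoters of genes kept and ACGTG in 26.1%. The same search took in 10 promoters of 8 members. CCAAT was in 5 of these 10 promoters, belonging to 4 members, Ing3, Kat5, Ruvbl1 and Ruvbl2. ACGTG was in 2 of the 10, those of Kat5 and Ruvbl2. The E-box CACGTG, which the Myc and Max pair can bind and which contains ACGTG, was in 1 promoter, of Kat5 (10.2% of promoters of genes kept). CCGGAAG was in 2, of Dmap1 and Kat5. TTTGGCGC (E2F) was in 2 overlapping promoters of Ing3 (1.0%) and the NRF1 motif in 0 (2.2%). Member promoters had a median GC content of 57.2%, against 60.7% over genes kept. A match describes letters and not binding.

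The remaining NuA4 subunits were more often lower than higher with clodronate. Of 9 further subunits, 3 were higher and 6 lower with clodronate, while 51.6% of all genes kept were higher and 48.4% lower. Their median log2 ratio was −0.26. At 3-fold 0 passed, against 2.86% of all genes kept that were higher and 2.32% lower. At least 2-fold lower was 1, Meaf6, against 6.77% of all genes kept. The lowest was Meaf6, a small partner of Ing and Epc proteins in the catalytic module, with 15.1 and 5.55 RPKM (−1.30). Yeats4, whose YEATS domain binds acylated histones, had 24.5 and 13.9 RPKM (−0.77). Mbtd1 had 9.77 and 6.38 RPKM, Mrgbp 6.97 and 5.39 RPKM and Vps72, a binder of H2A.Z, 22.8 and 18.9 RPKM. Morf4l1, a chromodomain subunit, was nearly level at 49.8 and 49.2 RPKM, while Morf4l2 had 49.1 and 60.3 RPKM. Actl6a had 10.8 and 12.0 RPKM, and Actb, the actin shared with the cytoskeleton, 3522 and 4169 RPKM. Over all 19 subunits, 10 were higher and 9 lower, with a median of 0.10.

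**Figure D3:**
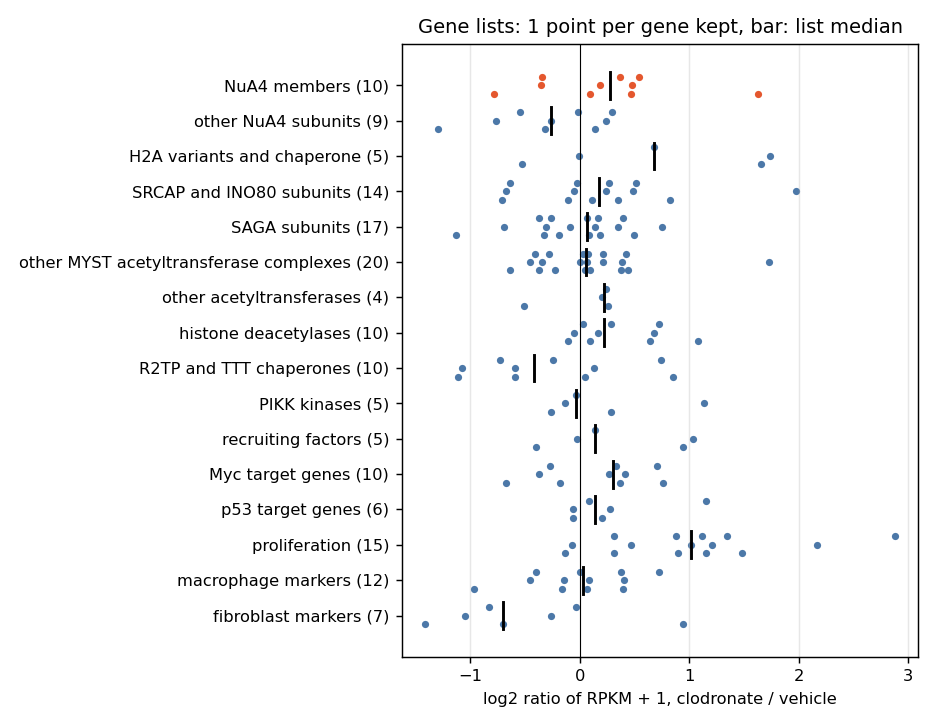
Log2 ratio of clodronate over vehicle (RPKM + 1) of each gene kept, by list, with the median of each list marked. The NuA4 members (median 0.28) and the other NuA4 subunits (−0.26) lie on either side of 0, and the proliferation list (1.02) lies highest among the lists drawn.

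The genes of H2A variants differed from each other in direction. H2afz, the main H2A.Z gene, had 412 and 286 RPKM (log2 ratio −0.53), whereas H2afv, the second H2A.Z gene, had 3.70 and 13.8 RPKM (1.65). H2afx, the variant phosphorylated at DNA breaks, had 4.08 and 15.9 RPKM (1.74), and macroH2A (H2afy) 64.4 and 64.1 RPKM. Anp32e, the chaperone that takes H2A.Z out of chromatin, had 12.5 and 20.6 RPKM. With the chaperone counted, 3 of the 5 genes were higher, 2 of them at least 3-fold, against 2.86% of all genes kept. The H2afz level is uncertain, since 69.6% of its 50-base stretches occur in other genes, and none of those of H2afv do. Of the H2afx stretches 9.7% occur in other genes, Hist1h2ab and Hist1h2ac among them.

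Complexes that share subunits with NuA4 had mixed directions. Of 14 SRCAP and INO80 genes, 8 were higher and 6 lower (median 0.18). Actr6, an actin-related subunit of SRCAP, was at 0.387 and 4.45 RPKM (1.97). It was the 1 gene of the list past 3-fold, against 2.86% of all genes kept that were higher. Of genes with a mean below 5 RPKM, such as Actr6, 6.18% were that much higher. The Actr6 value rested on a mean of 41.4 estimated reads. Ino80, the ATPase that works with the Ruvbl ring, had 12.9 and 15.7 RPKM. Of 10 genes of the R2TP and TTT chaperones, in which the Ruvbl ring assembles PI3K-related kinases, 4 were higher and 6 lower, with a median of −0.42. Pih1d1, which links the ring to its clients, had 49.0 and 22.7 RPKM (−1.08), and Wdr92 had 207 and 95.5 RPKM (−1.11). Both were at least 2-fold lower, as were 6.77% of all genes kept. Telo2, of the TTT complex, had 1.57 and 3.63 RPKM.

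Other histone acetylating and deacetylating genes differed in both directions. Of 17 subunits of SAGA, which shares Trrap, 9 were higher and 8 lower, with a median of 0.06, the acetyltransferases Kat2a at 21.6 and 23.8 RPKM and Kat2b at 11.2 and 9.72 RPKM. Of 20 genes of the other MYST complexes, 13 were higher and 7 lower (median 0.06). Kansl1 was at 26.2 and 34.4 RPKM and Kat7 at 18.2 and 18.6 RPKM. Jade3 (0.480 and 3.92 RPKM) was the 1 gene past 3-fold. That much higher were 2.86% of all genes kept and 6.18% of those with a mean below 5 RPKM. Ep300 (32.8 and 38.9 RPKM) and Crebbp (47.2 and 56.7 RPKM), the large general coactivator acetyltransferases, were each higher than Kat5 in both libraries. Of 10 histone deacetylase genes kept, 8 were higher and 2 lower (median 0.23), with Hdac5 at 21.9 and 37.0 RPKM.

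Factors that bring NuA4 to promoters, and genes they act on, were read beside it. Of 5 recruiting factors 3 were higher, among them Myc, which binds Trrap, at 22.7 and 44.7 RPKM (log2 ratio 0.95), and E2f1 at 8.13 and 17.7 RPKM (1.04). Max, the partner of Myc, had 55.7 and 42.0 RPKM and Trp53 42.4 and 46.9 RPKM. Of 10 Myc target genes 6 were higher and 4 lower, with a median of 0.30 and none past 2-fold. Odc1, of polyamine synthesis, had 71.7 and 117 RPKM, and Npm1, of the nucleolus, 187 and 144 RPKM. Of 6 p53 target genes 4 were higher (median 0.14), and Cdkn1a, the cell cycle inhibitor induced by p53, was nearly level at 239 and 229 RPKM.

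Several marker lists also differed between the libraries. The 8 fibroblast markers summed to 157 RPKM with vehicle and 76.4 RPKM with clodronate, and of the 7 kept 6 were lower. Pdgfrb was listed at 0 with vehicle. The 12 macrophage markers had a median log2 ratio of 0.03, with 7 higher and 5 lower. In the proliferation list 8 of 15 genes were at least 2-fold higher, against 6.95% of all genes kept. Examples were Mki67 at 16.7 and 38.4 RPKM and Top2a at 10.4 and 31.0 RPKM. The other lists were low, the highest genes being Cd4 among T and NK cell markers (10.3 and 7.72 RPKM), S100a8 among neutrophil markers (12.7 and 23.1 RPKM), Pecam1 among endothelial markers (1.24 and 3.33 RPKM) and Klf1 among erythroid markers (0.218 and 1.54 RPKM). The part of these cells in the NuA4 values was not tested.

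**Figure D4:**
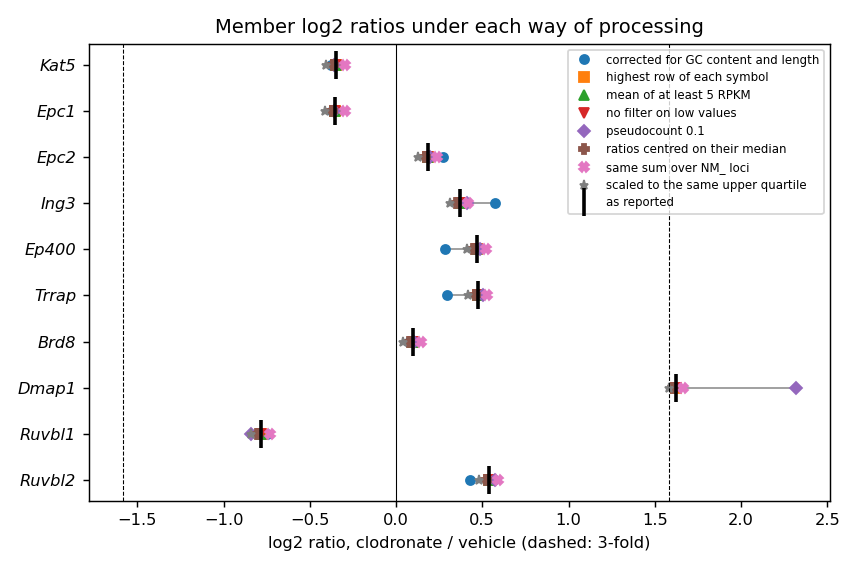
Log2 ratio of each member under the main setting and under the other scalings, filters, pseudocount and correction tried, with dashed lines at 3-fold. Each member kept its side of 0 under all settings that retained it, and Dmap1 ranged most, from 1.58 to 2.32. The filters and the pseudocount could not move a member across 0, and the scalings moved the members little.

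The members kept their direction under the alternatives, several of which could not turn it. All 10 kept their side of 0 under all 8 alternatives, of which Dmap1 was kept by 7. The filters, the highest locus per symbol and the pseudocount could not turn a direction. The scalings moved all members by little and nearly alike. Brd8, at 0.10, went to 0.04 with the same upper quartile and to 0.15 with the same sum over NM_ loci. The ranges were 0.04 to 0.15 for Brd8, 0.13 to 0.27 for Epc2, 0.31 to 0.58 for Ing3, 0.43 to 0.59 for Ruvbl2, −0.41 to −0.29 for Kat5 and −0.84 to −0.73 for Ruvbl1. The member median ranged from 0.18 to 0.33. These ranges describe arithmetic on the same libraries and stand in for no replicate.

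**Figure D5:**
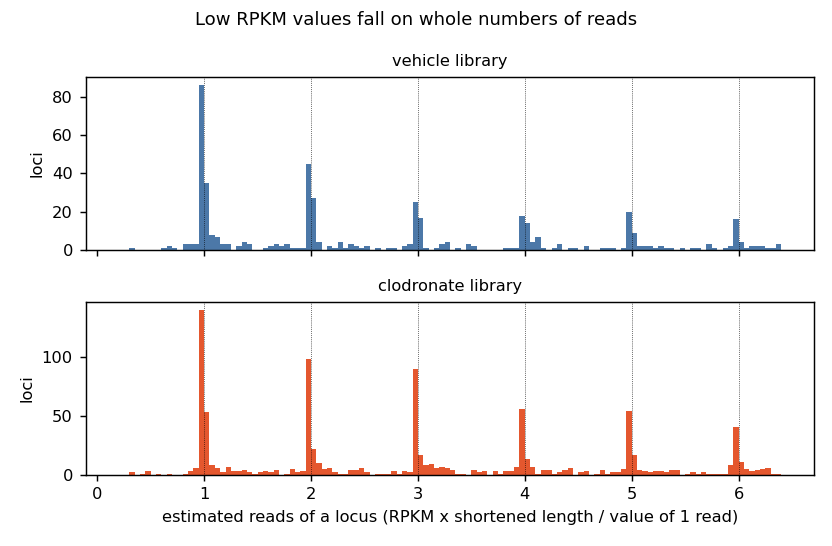
Number of loci (vertical axis) by estimated reads (RPKM times shortened transcript length over the worth of 1 read) in each library, dotted lines at whole reads. Of 476 low loci used with vehicle 66.4%, and of 919 with clodronate 66.6%, lay within 0.05 of a whole read, which is how the read numbers given for the members were set.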

How the data were processed

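Per the submitters' processing notes, CASAVA 1.8.2, TopHat2 2.0.9, Bowtie 0.12.9, Cufflinks 2.2.1 and Cuffdiff were used with the mm9 genome. The authors deposited RPKM values for 23170 loci in each of 2 libraries, and locus positions are given as in those files. The accession replaced 26 symbols that read as a number or date. RPKM were summed over loci of the same symbol, which left 22886 genes, of which those averaging at least 1 RPKM were kept. Ratios used a pseudocount of 1. RPKM are not counts, so no count model was used, and 1 library per condition allows no test. The worth of 1 read was found by fitting RPKM times transcript length, less 195 (vehicle) or 205 (clodronate) bases, to whole numbers. Intervals at the 95% level cover counting error only. The 50-base comparison used GENCODE M21 transcripts of GRCm38, and the promoters were those of RefSeq. Promoters of 8 members were searched. All 10 members are named, and other genes come only from the stated lists and from loci within 1000 bases. Members and lists were chosen with earlier results of these data known. Scripts ran in Python 3.11.15 with numpy 2.4.6, pandas 2.3.3, scipy 1.17.1 and matplotlib 3.10.9. The ratio and read estimate were run on simulated data with less scatter than these libraries have, which checks the arithmetic only. Alternatives were another pseudocount, other filters, scalings, the highest locus per symbol and a correction for GC content and length.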

Additional observations from a re-analysis of the deposited data

How the results depend on the processing

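Each member kept its direction under every setting that retained it, although the filters, the highest locus per symbol and the pseudocount could not turn it. The scalings moved the members little. The member median, 0.28 as reported, ranged from 0.18 (mean of at least 5 RPKM) to 0.33 (same sum over NM_ loci). Over all genes, 314 were at least 3-fold higher and 255 lower. A mean of at least 5 RPKM gave 127 and 101, and a pseudocount of 0.1 gave 532 and 480. Dmap1 was left out by the filter of 5 RPKM, so that 0 members then passed 3-fold and 0 passed 2-fold. With scaling to the same upper quartile its log2 ratio was 1.58, just under 3-fold, and the count at 3-fold was again 0. Log2 ratios of Trrap, Ep400, Ruvbl2 and Ing3 were 0.29, 0.29, 0.43 and 0.58 after correction for GC content and length. The estimate of reads, the spread of like genes and the search for shared stretches were chosen after seeing the data. No paired analysis was possible because vehicle and clodronate are single libraries. Depth limits Dmap1 most, with about 17 reads in the vehicle library.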
